A study of Homo sapiens with 22 samples.

Results

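This account follows 9 genes for BET bromodomain proteins and for factors that control transcription elongation by the kinase P-TEFb, out of the 26485 gene symbols counted in each library. They were chosen by symbol, with no measured value in the rule but with earlier results of these data known. All 9 were found: BRD2, BRD3, HEXIM1, LARP7, CDK9, CCNT1, CCNT2, AFF1 and AFF4. All 9 passed the filter on low counts in each fit.

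Gene-level read counts were available for 22 RNA-seq libraries labelled MDA-MB231, an established triple-negative human breast cancer line, in 3 experiments on HDAC6, a mainly cytoplasmic deacetylase. In the first, wild-type cells received DMSO (Ctrl, n = 2) or the HDAC6 inhibitor Nexturastat A at 7.65 µM (n = 2) and were sampled at day 2. In the knockdown experiment, cells carried a control hairpin (shCtrl, labelled wild type, n = 3), the HDAC6 hairpin shHDAC6-1 (n = 3) or a second one, shHDAC6-2 (n = 3), sampled at day 0 with no drug named. In the compound experiment, wild-type cells received DMSO (n = 3), HPOB (n = 3) or Tubastatin A (n = 3), and were sampled at day 2. HPOB and Tubastatin A are also inhibitors of HDAC6, and neither label states a dose. The titles of the last group read TSA, and its treatment label, which was used, reads Tubastatin A. The labels do not say whether replicates are separate cultures, so p-values measure only the spread between these libraries.

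BET proteins bind acetylated lysines on histones through paired bromodomains and help to recruit P-TEFb, the complex of the kinase CDK9 with a T-type cyclin, which releases paused RNA polymerase II into elongation. Much of the P-TEFb in a cell is held inactive by HEXIM1 in a small nuclear RNA particle, the 7SK particle, whose RNA is kept stable by LARP7, while AFF1 and AFF4 are scaffolds of the super elongation complex that carries active P-TEFb. HEXIM1, named for its induction by hexamethylene bisacetamide, is widely used as a marker of a response to BET inhibitors, under which its mRNA is known to rise.

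Some libraries stood apart before any result. The 6 libraries of knockdown replicates 1 and 2 held CD44 at no more than 23.7 CPM (counts scaled to library size, with TMM factors within an experiment), against 274 to 622 CPM in the other 16, and CDKN2A, which the MDA-MB231 line is known to lack, at 143 to 187 CPM. In the same 6 libraries AXL (18.2 to 35.3 CPM) and CAV1 (21.5 to 29.5 CPM) were also low, but the mesenchymal marker SPARC was highest, at 152 to 245 CPM. SPARC had 38.7 to 64.9 CPM in the Nexturastat A experiment and was low, at 3.58 to 5.47 CPM, in the compound experiment. The epithelial marker CDH1 had 5.22 to 7.57 CPM in these 6 libraries, 3.87 to 6.88 CPM in the compound experiment and at most 0.279 CPM in the Nexturastat A experiment. The luminal markers ESR1 and PGR stayed at or under 0.71 CPM in all 22. ERBB2, also expected to be low in the line, was not near 0, at 36.4 to 121 CPM over the 22. EPCAM, another such marker, had 8.68 to 15.3 CPM in the compound experiment and 0.799 to 5.36 CPM elsewhere. The mesenchymal marker VIM had 624 to 780 CPM in the 6 libraries and 1374 to 2243 CPM in the other 16. In knockdown replicate 3, the ratio of either hairpin to shCtrl followed the GC content of the transcript across genes, with Spearman correlations of 0.807 and 0.795 over 12424 genes of the same libraries. Replicate 3 is therefore described apart, as 1 library per group. HDAC6 itself, on chromosome X from 48801377 to 48824982 (GRCh38), stood at 49.2 CPM ± 5.18 (SD, n = 2) in shCtrl replicates 1 and 2, at 12.4 ± 0.553 (SD, n = 2) with shHDAC6-1 and at 13.2 ± 1.16 (SD, n = 2) with shHDAC6-2. Depth ran from 31.2 to 85.9 M (mega) counts per library.

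The promoter windows of 4 members are shown because HEXIM1, CCNT2 and AFF4 were each called in both the Nexturastat A and the knockdown experiment, while CDK9, the kinase they act with, was called in none. Each runs 5′ to 3′ on the strand of its gene, from 250 bases before the annotated start to 50 after it, as taken from RefSeq (GRCh38.p14), which held a window for all 9 members. Capitals mark exact matches, on either strand, to the letters TATAAA for a TATA box, the letters CCAAT for a CCAAT box, the letters GGGCGG for a GC box, the letters CACGTG for an E-box, the letters CCGGAAG for an ETS site and the letters TGACGTCA for a cyclic AMP response element.
HEXIM1: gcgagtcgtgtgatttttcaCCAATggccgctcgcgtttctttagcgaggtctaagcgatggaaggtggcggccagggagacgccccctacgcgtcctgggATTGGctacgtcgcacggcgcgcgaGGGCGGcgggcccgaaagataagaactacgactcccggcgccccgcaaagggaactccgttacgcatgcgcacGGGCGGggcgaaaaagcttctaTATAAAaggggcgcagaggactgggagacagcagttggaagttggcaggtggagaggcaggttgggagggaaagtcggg
CCNT2: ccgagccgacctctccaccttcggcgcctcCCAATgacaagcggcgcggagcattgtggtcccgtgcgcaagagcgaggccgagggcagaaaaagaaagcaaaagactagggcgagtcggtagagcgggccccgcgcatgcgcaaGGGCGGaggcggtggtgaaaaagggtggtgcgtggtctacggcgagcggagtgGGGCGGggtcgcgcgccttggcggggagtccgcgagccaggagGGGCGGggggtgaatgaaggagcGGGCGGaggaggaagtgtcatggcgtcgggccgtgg
AFF4: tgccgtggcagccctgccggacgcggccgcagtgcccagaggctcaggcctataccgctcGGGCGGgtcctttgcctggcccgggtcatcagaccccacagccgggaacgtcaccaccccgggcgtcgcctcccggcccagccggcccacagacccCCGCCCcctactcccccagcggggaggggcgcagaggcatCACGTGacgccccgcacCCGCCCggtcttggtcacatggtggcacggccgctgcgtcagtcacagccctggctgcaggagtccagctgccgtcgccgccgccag
CDK9: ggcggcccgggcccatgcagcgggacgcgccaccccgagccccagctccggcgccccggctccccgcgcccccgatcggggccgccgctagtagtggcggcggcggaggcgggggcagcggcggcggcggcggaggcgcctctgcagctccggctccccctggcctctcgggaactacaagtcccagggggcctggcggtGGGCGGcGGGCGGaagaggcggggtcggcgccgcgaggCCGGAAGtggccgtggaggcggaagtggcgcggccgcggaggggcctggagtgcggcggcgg
These windows lie at chr17:45148225-45148524 (HEXIM1, plus strand), chr2:134918572-134918871 (CCNT2, plus strand), chr5:132963585-132963884 (AFF4, minus strand) and chr9:127785784-127786083 (CDK9, plus strand). Start sites here are those of RefSeq and can differ from those of GENCODE 29, whose gene positions are given below. The windows of CCNT2 and CDK9 lie wholly inside their GENCODE genes. HEXIM1 was the only one of the 9 members with a TATA box match, which began 29 bases before the start (position -29), and 11.5% of the 35116 windows in the table held one. It also had 2 CCAAT boxes, at -230 and, on the reverse strand, at -149, and 2 GC boxes at -124 and -51. CCNT2 had 1 CCAAT box and 4 GC boxes, AFF4 had 3 GC boxes and 1 E-box, and CDK9 had 2 GC boxes and 1 ETS site. GC boxes were found in all 9 windows, against 45% of all windows, and the GC content of the members' windows ran from 57.7% (LARP7) to 85.0% (BRD3), beside a median of 58.7%. A match describes letters in a window and not a bound site, and no binding data were used here. BRD2, CCNT1, AFF1 and LARP7 have more than 1 annotated window, of which the first listed was searched.

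**Figure D1:**
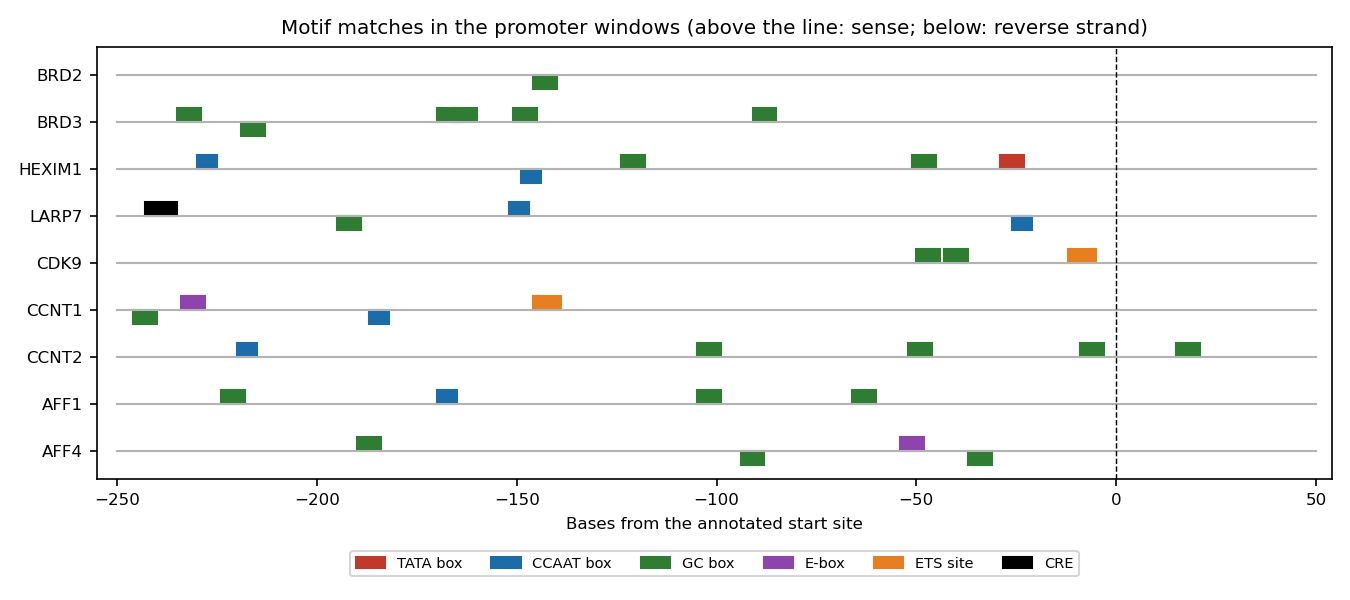
Motif matches in the 9 promoter windows, plotted by distance in bases from the annotated start site; boxes above a line lie on the gene's strand and boxes below on the reverse strand. The single TATA box match is that of HEXIM1 at -29, and every window has at least 1 GC box.

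By level per kilobase of the longest annotated transcript, BRD2 led in every control group, and CCNT2 came last in Ctrl, DMSO and shCtrl replicates 1 and 2. In shCtrl replicate 3, AFF1 came last, at 5.99 CPM per kilobase, below BRD3 at 6.50 and CCNT2 at 6.78. In DMSO the order was BRD2 at 61.2 CPM per kilobase ± 2.07 (SD, n = 3), HEXIM1 at 48.5 ± 1.24 (SD, n = 3), CDK9 at 35.2 ± 1.19 (SD, n = 3), AFF4 at 25.7 ± 1.27 (SD, n = 3), LARP7 at 21.9 ± 0.111 (SD, n = 3), AFF1 at 10.7 ± 0.577 (SD, n = 3), BRD3 at 8.65 ± 0.168 (SD, n = 3), CCNT1 at 6.22 ± 0.704 (SD, n = 3) and CCNT2 at 5.46 ± 0.458 (SD, n = 3). Only the last pair of neighbours, the cyclins CCNT1 and CCNT2, overlapped between libraries. In Ctrl the first 5 places were the same, and the neighbours that overlapped were LARP7 with CCNT1 and BRD3 with AFF1. In shCtrl replicates 1 and 2, HEXIM1 held place 5, at 17.5 CPM per kilobase ± 0.679 (SD, n = 2), within the range of BRD3. The labels set Ctrl, DMSO and shCtrl in different experiments, so experiment and cell state cannot be told apart in differences between those groups. The shCtrl replicates share an experiment label. Even so, log2 CPM of shCtrl replicate 3 correlated at 0.971 to 0.977 with the Ctrl libraries (Pearson's r). With the libraries of knockdown replicates 1 and 2 it correlated at 0.669 to 0.689. The cause of this split was not tested.

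The members differed in how far their levels moved across experiments. On plain CPM, scaled by the total of each library alone, CDK9 lay between 69.6 and 99.1 in the 20 libraries other than the hairpins of replicate 3. HEXIM1 lay at 64.1 to 66.7 in shCtrl replicates 1 and 2 but at 169 to 202 in Ctrl, DMSO and shCtrl replicate 3. CCNT1 showed another split on this scale, with 111 to 115 in Ctrl against 39.6 to 48.7 in DMSO, although both groups received DMSO. BRD2 stood at 543 to 596 in shCtrl replicates 1 and 2 and at 289 to 332 in the other controls.

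**Figure D2:**
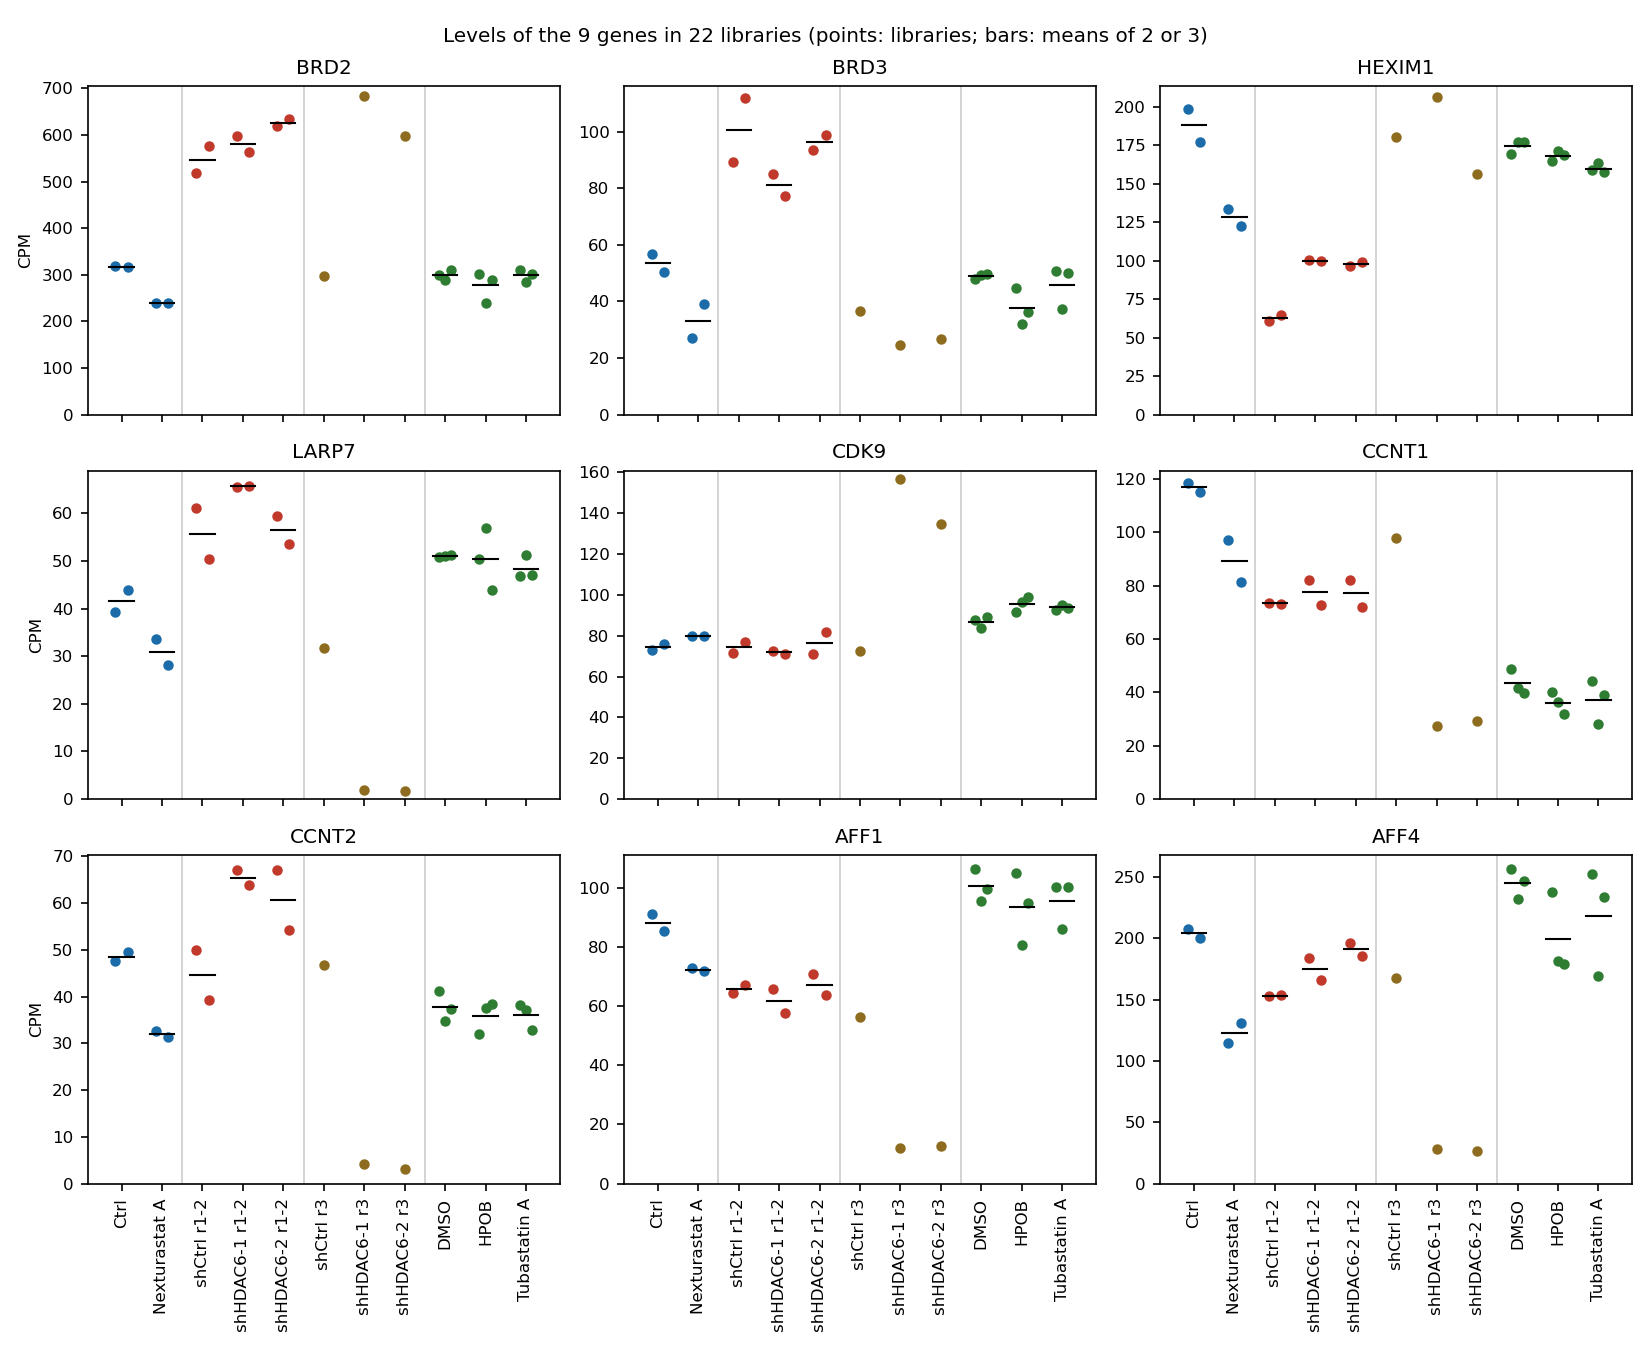
Levels of the 9 genes in 22 libraries, in CPM scaled within each experiment (replicate 3 of the knockdown apart); points are libraries, bars are means of 2 or 3, and r1-2 and r3 name the knockdown replicates. HEXIM1 falls with Nexturastat A and is higher with either hairpin in replicates 1 and 2, while LARP7, CCNT2, AFF1 and AFF4 are low in the hairpin libraries of replicate 3.

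With Nexturastat A, 5 of the 9 genes fell and none rose. They were AFF4, BRD3, CCNT2, HEXIM1 and BRD2, that is, both BET genes, the inhibitor of P-TEFb, 1 of its 2 cyclins and 1 of the 2 scaffolds. The test was edgeR's quasi-likelihood F test with Benjamini-Hochberg adjustment over 16678 genes, of which 15.5% were called lower, 21.1% higher and 36.6% either way at an adjusted p under 0.05. The median log2 fold change of the 9 was -0.43, beside 0.03 over all genes tested. Over the more expressed genes (mean log2 CPM 2 or more) the median was -0.10, which is nearer to that of the 9. All 9 had no overlap between Ctrl and treated libraries, as had 74.1% of all genes tested. An unadjusted p under 0.05 was found for 8 of the 9 and for 8051 of all genes (48.3%).

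Among the BET genes, BRD2 stood at 318 and 316 CPM in the Ctrl libraries and at 240 and 240 CPM with Nexturastat A. Both treated libraries lay below both controls, by -0.40 ± 0.12 on the log2 scale (SE, adjusted p = 0.0336). BRD3, the other BET gene here, stood at 56.6 and 50.3 CPM in Ctrl and at 26.9 and 39.2 CPM with treatment. Its treated libraries differed from each other more than its controls did, and the log2 fold change was -0.69 ± 0.20 (SE, adjusted p = 0.0316).

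HEXIM1 had 199 and 177 CPM in Ctrl and 134 and 122 CPM with Nexturastat A. The groups did not overlap, and the level fell by 0.55 ± 0.13 on the log2 scale (SE, adjusted p = 0.0152), to 0.681 of the Ctrl mean. LARP7, its partner in the 7SK particle, had 39.3 and 43.9 CPM in Ctrl and 33.5 and 28.1 CPM with treatment, a log2 difference of -0.43 with a 95% interval of -0.79 to -0.07 that did not pass the adjusted threshold (adjusted p = 0.0639).

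For P-TEFb itself, the kinase CDK9 had 73.0 and 76.0 CPM in Ctrl and 80.1 and 80.0 CPM with Nexturastat A. This was the only member with a treated mean above its control mean, and its log2 difference was 0.10 with an interval of -0.18 to 0.38 (adjusted p = 0.523). The cyclin CCNT2 had 47.5 and 49.6 CPM in Ctrl and 32.6 and 31.3 CPM with treatment. Its replicates lay close together in both groups, and it fell by 0.60 ± 0.13 on the log2 scale (SE, adjusted p = 0.0129). CCNT1, the cyclin most often found with CDK9, had 119 and 115 CPM against 97.2 and 81.4 CPM, with a log2 difference of -0.39 (adjusted p = 0.0579).

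AFF4, the scaffold of the super elongation complex, had the lowest log2 fold change of the 9. Its levels were 208 and 200 CPM in Ctrl and 114 and 131 CPM with Nexturastat A, a log2 fold change of -0.73 ± 0.13 (SE, adjusted p = 0.00608). The related scaffold AFF1 had 91.1 and 85.4 CPM in Ctrl and 72.8 and 71.8 CPM with treatment, and its log2 difference of -0.29 was not called (adjusted p = 0.0988).

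These calls rest on the pair of Ctrl libraries. Without Ctrl replicate 1 or without Ctrl replicate 2 none of the 9 was called, although the 5 log2 fold changes kept their sign, and the lowest adjusted p values were 0.0733 and 0.0581, both for AFF4. Without Nexturastat A replicate 1, CCNT1 (-0.52, adjusted p = 0.00492) and LARP7 (-0.57, adjusted p = 0.00956) were called as well. The summed level of VIM, CD44, AXL, CAV1 and SPARC, 5 mesenchymal markers of the line, was 4166 to 4174 CPM in Ctrl. With Nexturastat A it was 2473 to 3106 CPM. Summed over ESR1, PGR, ERBB2, CDH1 and EPCAM, markers expected to be low in the line, levels were also lower with treatment. They were 89.0 to 94.6 CPM in Ctrl and 41.8 to 50.2 CPM with Nexturastat A. The mRNA of HDAC6 had 30.3 CPM ± 0.930 (SD, n = 2) in Ctrl and 26.6 ± 0.445 (SD, n = 2) with treatment and was not called (adjusted p = 0.328). In bulk libraries, fewer cells of a type and less RNA per cell cannot be told apart, and the part of the markers in these results was not tested.

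**Figure D3:**
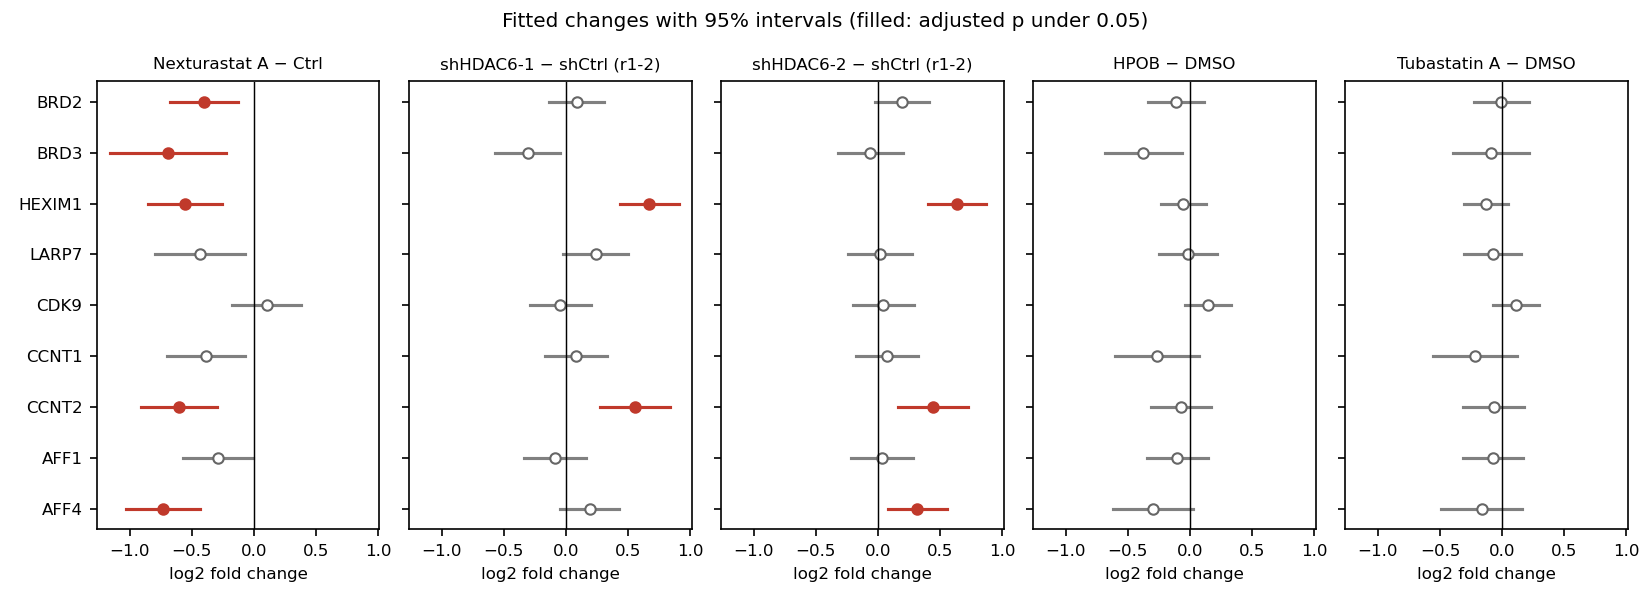
Log2 fold changes of the 9 genes against the control of each comparison, with 95% intervals; filled points passed an adjusted p under 0.05 in edgeR. HEXIM1 and CCNT2 are lower with Nexturastat A and higher with either hairpin, and no point is filled for HPOB or Tubastatin A.

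In knockdown replicates 1 and 2, HEXIM1 and CCNT2 rose with both hairpins, and AFF4 rose with shHDAC6-2. With shHDAC6-1, 2 of the 9 were called, both higher, where 30.5% of 17702 genes were called, 15.3% as higher and 15.2% as lower. With shHDAC6-2, 3 of 9 were called, all higher, beside 27.6% of all genes, 14.4% higher and 13.2% lower. The shares of members called lie near those of all genes, so the counts say nothing of the 9 as a set. Both hairpin comparisons use the same 2 shCtrl libraries. Hairpin and shCtrl libraries did not overlap for 5 of the 9 with shHDAC6-1 and 4 with shHDAC6-2. Over all genes tested the shares were 65.3% and 60.9%.

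HEXIM1 had 61.1 and 64.6 CPM in shCtrl, 100.2 and 99.8 CPM with shHDAC6-1, and 96.4 and 98.9 CPM with shHDAC6-2. All 4 hairpin libraries lay above both controls. The log2 fold change was 0.67 ± 0.11 (SE, adjusted p = 0.000108) with shHDAC6-1 and 0.64 ± 0.11 (SE, adjusted p = 0.000207) with shHDAC6-2, or 1.59 and 1.55 times the shCtrl mean. The hairpins differed from each other by -0.03 (shHDAC6-2 minus shHDAC6-1), with a 95% interval of -0.27 to 0.20. HEXIM1 was called with either hairpin whichever of the 6 libraries was left out, and its log2 fold changes were 0.64 and 0.61 after trends on GC content and transcript length were removed.

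CCNT2 had 49.9 and 39.4 CPM in shCtrl, 67.1 and 63.8 CPM with shHDAC6-1, and 67.1 and 54.2 CPM with shHDAC6-2. The hairpin libraries all exceeded the controls. Its log2 fold change was 0.55 ± 0.14 (SE, adjusted p = 0.00341) with shHDAC6-1 and 0.44 ± 0.14 (SE, adjusted p = 0.0174) with shHDAC6-2. The second call was lost without shCtrl replicate 2 (adjusted p = 0.168) or without shHDAC6-2 replicate 1 (adjusted p = 0.252). CCNT2 has an AT-rich transcript, with 37.0% GC, and genes in the lowest of 5 bins of GC content had a median log2 change of 0.21 with shHDAC6-1 and 0.12 with shHDAC6-2. With GC and length trends removed the values for CCNT2 were 0.30 and 0.28, and both were called.

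AFF4 had 152.7 and 153.7 CPM in shCtrl, 184 and 166 CPM with shHDAC6-1, and 196 and 185 CPM with shHDAC6-2. It was called with shHDAC6-2 alone, at 0.32 ± 0.11 (SE, adjusted p = 0.0414), while the difference between hairpins was 0.13 (interval -0.11 to 0.36, adjusted p = 0.874). The call for AFF4 was lost whichever of the 6 libraries was left out, with adjusted p values of 0.0513 to 0.236.

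The other 6 members were not called with either hairpin. With GC and length trends removed, BRD2 was called with both, at 0.25 (adjusted p = 0.000526) and 0.26 (adjusted p = 0.000352). In that fit BRD3 was also called with shHDAC6-1 (-0.20, adjusted p = 0.0159) and CDK9 with shHDAC6-2 (0.17, adjusted p = 0.0340). BRD2 had 518 and 577 CPM in shCtrl, 599 and 564 CPM with shHDAC6-1, and 619 and 633 CPM with shHDAC6-2, and its groups overlapped with the first hairpin alone. BRD3 had 89.1 and 111.8 CPM in shCtrl, 85.0 and 77.2 CPM with shHDAC6-1 (log2 difference -0.31, adjusted p = 0.0651), and 93.6 and 99.0 CPM with shHDAC6-2. Without shCtrl replicate 1 the difference for BRD3 with shHDAC6-1 was called at -0.46 (adjusted p = 0.00344), as was that for LARP7 at 0.39 (adjusted p = 0.0243). The difference for BRD3 was also called without shHDAC6-2 replicate 1 (-0.30, adjusted p = 0.0423) or replicate 2 (-0.30, adjusted p = 0.0411). CDK9 again showed little difference, at -0.05 with shHDAC6-1 (interval -0.29 to 0.20) and 0.04 with shHDAC6-2 (interval -0.20 to 0.29). CCNT1 differed by 0.08 and 0.07, AFF1 by -0.09 and 0.03, and LARP7 by 0.24 and 0.02. None of the 9 was called between the hairpins, where edgeR called 0 of 17702 genes and 1107 had an unadjusted p under 0.05.

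Other measures moved with the hairpins in these 6 libraries. IRS4 and IGF2BP1, genes that were at or near 0 in the Nexturastat A and compound experiments, summed to 590 to 689 CPM in shCtrl, 802 to 992 CPM with shHDAC6-1 and 1055 to 1097 CPM with shHDAC6-2. Across genes, the change correlated with GC content at -0.379 with shHDAC6-1 and -0.269 with shHDAC6-2 (Spearman, 16476 genes of the same libraries). HEXIM1 has 48.2% GC, and the median change in its bin of GC content was 0.00 with shHDAC6-1 and 0.04 with shHDAC6-2. The part of the IRS4 and IGF2BP1 levels in the result for HEXIM1 was not tested.

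In knockdown replicate 3, there was 1 library per group and so no test. With shHDAC6-1, 2 members were more than 2-fold higher and 5 more than 2-fold lower, and with shHDAC6-2, 1 was higher and 5 were lower. The counts of higher members depend on the scaling: on plain CPM, a scale added after seeing the data, 0 were more than 2-fold higher with either hairpin and 5 were lower with each. Of 13043 genes compared, 60.8% passed 2-fold with shHDAC6-1 (27.8% higher and 33% lower) and 58.3% with shHDAC6-2 (26.5% higher and 31.8% lower). Counts of members past 2-fold in either direction are near these shares. The 5 of 9 lower with each hairpin lie above the shares of genes lower, and the 1 higher with shHDAC6-2 lies below its share. These differences were not tested. Intervals below are 95% and cover counting error only, since reads carry no molecular identifiers.

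In replicate 3, HEXIM1 had 180 CPM in shCtrl, 206 CPM with shHDAC6-1 and 156 CPM with shHDAC6-2, ratios of 1.14 (interval 1.12 to 1.17) and 0.866 (0.842 to 0.890). The hairpins lay on opposite sides of the control on this scale, but both lay below it on plain CPM, with ratios of 0.967 and 0.731. CDKN2A stood at 7.52 and 25.5 CPM with the hairpins against 0 in shCtrl replicate 3, and IRS4 and IGF2BP1 summed to 18.8 and 56.9 CPM against 0. The part of these levels in the ratios was not tested. CCNT2 had 46.9 CPM in shCtrl, 4.28 CPM with shHDAC6-1 and 3.13 CPM with shHDAC6-2, ratios of 0.0913 and 0.0667, the opposite direction to replicates 1 and 2. LARP7 had 31.8 CPM in shCtrl and 1.92 and 1.76 CPM with the hairpins, from 156 and 98 counts, the lowest levels of any member in any library.

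AFF4 ratios were 0.168 and 0.160, AFF1 ratios 0.211 and 0.229, and CCNT1 ratios 0.280 and 0.300. These 5 members with low ratios have transcripts of 37.0% to 45.2% GC. BRD2 and CDK9, at 55.0% and 55.1% GC, had ratios of 2.30 and 2.15 with shHDAC6-1 and 2.01 and 1.85 with shHDAC6-2 (on plain CPM 1.95 and 1.82, then 1.70 and 1.56). BRD3, at 52.3% GC, had ratios of 0.668 and 0.729, log2 values of -0.58 and -0.46, where the genes of its bin had medians of 0.94 and 0.91. LARP7, AFF4, CCNT2 and AFF1 also lay below the medians of their bins, while BRD2 and CCNT1 lay above theirs. For LARP7 the log2 values were -3.98 and -4.10 beside -2.42 and -2.46, and for AFF4 -2.57 and -2.64 beside -1.25 and -1.17. The spread within the bins is not given. Over all genes, the median log2 ratio with shHDAC6-1 ran from -2.42 in the lowest bin of GC content to 1.47 in the highest. HDAC6 itself stood at 0.437 and 0.551 of shCtrl.

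**Figure D4:**
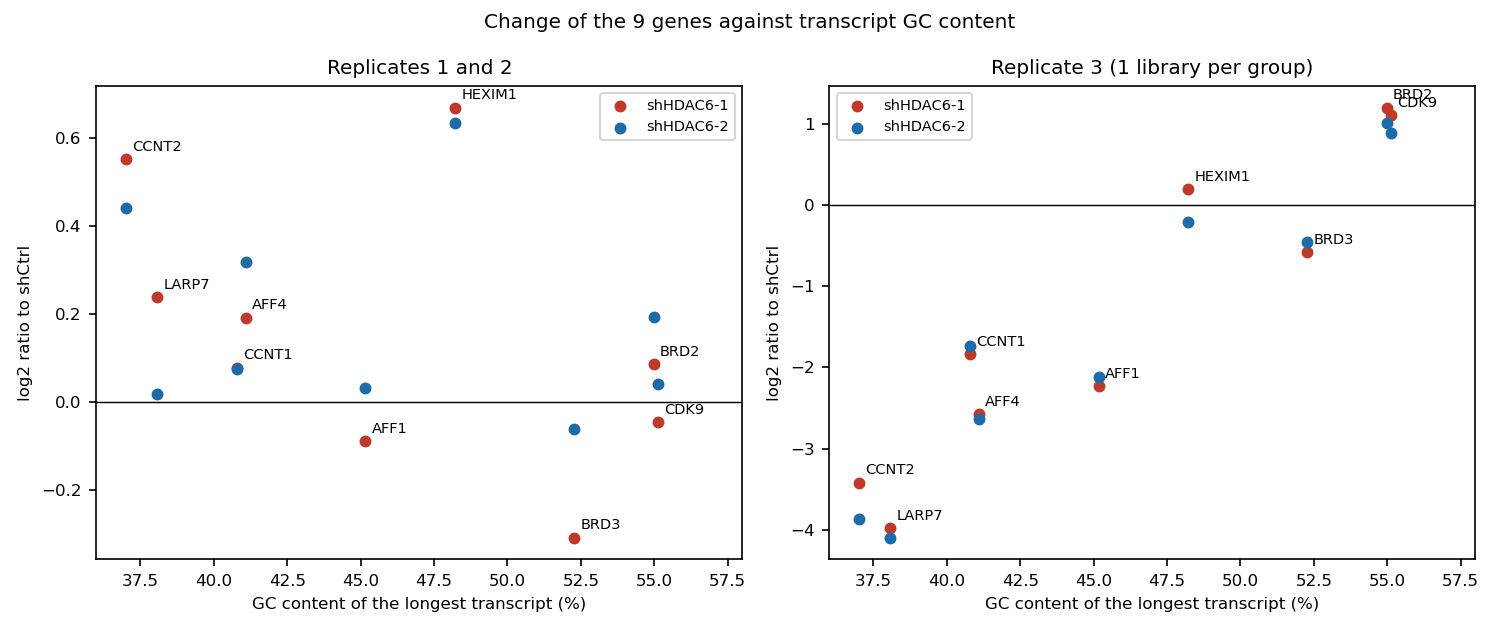
Log2 ratio to shCtrl of the 9 genes against the GC content of the longest transcript, in knockdown replicates 1 and 2 (left, fitted) and in replicate 3 (right, 1 library per group); colours are the hairpins and the vertical scales differ. In replicate 3 the 5 genes of at most 45.2% GC lie below 0, BRD2 and CDK9 lie near 1, and BRD3, of 52.3% GC, lies below 0.

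With HPOB and with Tubastatin A, none of the 9 was called. Of 15338 genes, 0.0261% were called with HPOB (edgeR called 4 genes, and 1588 had p under 0.05 before adjustment) and 0% with Tubastatin A (757 before adjustment), so a count of 0 members is near the background. DESeq2 called 120 genes with HPOB and 23 with Tubastatin A, and none was a member. With HPOB 8 of the 9 fitted differences were below 0, and the same number was below 0 with Tubastatin A. The 2 comparisons share the DMSO libraries. The median log2 difference of the 9 was -0.10 with HPOB and -0.08 with Tubastatin A, beside 0.01 over all genes with each. The share of all genes below 0 is not given, and the direction of the 9 as a set was not tested. The 95% intervals of the 9 log2 differences all lay within -0.68 and 0.33 with HPOB and within -0.56 and 0.30 with Tubastatin A. Replicates were less alike with either compound than with DMSO. Chi-square per gene between libraries of a group was 4.42 to 5.47 with DMSO. It was 43.7 to 53.3 with HPOB and 9.61 to 84.1 with Tubastatin A, highest for pairs with replicate 2. With HPOB replicate 3 and Tubastatin A replicate 2 left out, no member was called. The part of this spread in the results was not tested.

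HEXIM1 had 169, 177 and 177 CPM in DMSO, 165, 171 and 169 CPM with HPOB and 159, 163 and 157 CPM with Tubastatin A. All Tubastatin A libraries lay below all DMSO libraries, while HPOB and DMSO overlapped. The log2 difference was -0.13 (interval -0.30 to 0.05, adjusted p = 0.857) with Tubastatin A and -0.05 (interval -0.23 to 0.12, adjusted p = 0.801) with HPOB. BRD3 had 47.8, 49.3 and 49.6 CPM in DMSO and 44.8, 32.1 and 36.2 CPM with HPOB. These groups did not overlap, and the log2 difference of -0.38 had an interval of -0.68 to -0.07 and an adjusted p of 0.441. With Tubastatin A, BRD3 had 50.6, 37.2 and 50.1 CPM, on both sides of DMSO.

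CDK9 had 87.5, 83.6 and 89.3 CPM in DMSO, 91.6, 96.6 and 98.9 CPM with HPOB and 92.7, 95.3 and 93.8 CPM with Tubastatin A. It was the only member with means above DMSO for both compounds, and all 6 treated libraries exceeded the controls, by 0.14 (interval -0.04 to 0.33) and 0.11 (interval -0.07 to 0.30) on the log2 scale. AFF4 had 256, 232 and 247 CPM in DMSO, 237, 181 and 179 CPM with HPOB and 253, 169 and 234 CPM with Tubastatin A. Tubastatin A replicate 2 was the lowest of the 9 libraries for AFF4 and also for CCNT1, at 28.2 CPM. The remaining members, BRD2, CCNT1, CCNT2, AFF1 and LARP7, overlapped between DMSO and each compound. With each compound 2 of the 9 had no overlap with DMSO. Over all genes tested the share was 21.6% with HPOB and 16.7% with Tubastatin A, so these separations are near the background. Tubastatin A and HPOB were compared directly for the 9 genes, and none was called (0% of all genes, 481 unadjusted). The largest such difference was that of BRD3, at 0.29 (Tubastatin A minus HPOB, interval -0.02 to 0.59). With no dose stated, this compares the libraries as they are and not matched doses.

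The effect of Nexturastat A was set against those of the other inhibitors, each relative to its own controls, in 1 fit of 13 libraries. Against HPOB, HEXIM1 alone differed, by -0.45 ± 0.14 (SE, adjusted p = 0.0394), where 17.5% of 17083 genes were called, 7.69% as lower and 9.81% as higher. Against Tubastatin A no member was called, beside 19.1% of genes (8.46% lower and 10.6% higher), with HEXIM1 at -0.37 (interval -0.67 to -0.07, adjusted p = 0.0836) and CCNT2 at -0.48 (interval -0.84 to -0.11, adjusted p = 0.0681). The 2 contrasts share the Nexturastat A and Ctrl libraries, and each had 8 of the 9 differences below 0. The median of the 9 was -0.27 against HPOB and -0.34 against Tubastatin A, beside 0.05 over all genes in each, and this direction was not tested. The difference for HEXIM1 from HPOB was called in 10 of 21 alternatives, and was lost without either Ctrl library, any DMSO library, Nexturastat A replicate 2, HPOB replicate 1 or 3, or Tubastatin A replicate 3, with log2 differences of -0.54 to -0.38 and adjusted p values of 0.0504 to 0.178. Against Tubastatin A, BRD3 was called without Nexturastat A replicate 2 (-0.86, adjusted p = 0.0209), and BRD3 (-0.69, adjusted p = 0.0402) and AFF4 (-0.68, adjusted p = 0.0145) without Tubastatin A replicate 2. Against HPOB, CCNT2 was called without HPOB replicate 1 (-0.56, adjusted p = 0.0440). Compound, dose and experiment cannot be told apart in this contrast.

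The other genes of the pathway were read from lists that hold none of the 9 members. Their counts are set beside the shares of all genes: 21.1% higher and 15.5% lower with Nexturastat A, 15.3% and 15.2% with shHDAC6-1, and 14.4% and 13.2% with shHDAC6-2. No list was tested as a set, and nothing is read from a count near these shares, such as 3 higher and 1 lower of 10. Among 10 genes of the 7SK particle and the super elongation complex, 3 rose and 1 fell with Nexturastat A. The gene that fell was MEPCE, which caps the 7SK RNA, from 59.8 CPM ± 2.73 (SD, n = 2) to 28.7 ± 2.54 (SD, n = 2), a log2 fold change of -1.06. ELL3, of the ELL family of elongation factors, rose by 1.05 on the log2 scale. The remaining 2 that rose, EAF2 and AFF3, are named after their values were seen. They were low in this experiment, with a mean log2 CPM of 1.31 and -1.04. AFF3 was higher in the compound experiment (3.93) and in knockdown replicates 1 and 2 (4.10). With the hairpins the same list had 2 genes higher and 4 lower (shHDAC6-1) or 5 lower (shHDAC6-2). ELL2 and EAF1 rose with both, by 0.70 and 0.53 with shHDAC6-1, while MLLT1, an acetyl-lysine reader of the complex, had log2 fold changes of -1.42 and -1.34.

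Among 36 other bromodomain and YEATS readers, 23 fell and 1 rose with Nexturastat A. Their median log2 fold change was -0.73, beside 0.03 over all genes and -0.10 over the more expressed genes. BRD8, a subunit of the TIP60 acetyltransferase complex, had 112.9 CPM ± 2.29 (SD, n = 2) in Ctrl and 44.9 ± 10.7 (SD, n = 2) with treatment, a log2 fold change of -1.33, and CREBBP, a histone acetyltransferase, one of -1.22. With shHDAC6-1, 7 of the 35 tested were higher and 4 lower, and with shHDAC6-2, 8 were higher and 2 lower. YEATS4 rose with both hairpins, by 1.59 and 1.35, and BAZ2A had log2 fold changes of -0.66 and -0.34.

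Of 17 pausing and polymerase-associated factors, 1 rose and 6 fell with Nexturastat A, among them SUPT5H, a subunit of the pausing factor DSIF, at 0.39, and RTF1 and PAF1, which act in or with the PAF1 complex, at -0.92 and -0.68. The hairpins gave 2 and 4 genes higher and none lower, led by the elongation factor TCEA1 at 1.33 and 1.10. Of 9 other transcriptional kinases and cyclins, 3 fell and none rose with Nexturastat A, including CDK12, which also phosphorylates the polymerase, at -1.07, and CDK19 at -0.95. The hairpins gave 4 and 3 higher and none lower, with the Mediator kinase CDK8 at 0.82 and 0.80. With HPOB and Tubastatin A no gene of any of these lists was called by edgeR.

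HEXIM1 was also read beside 4 other genes known to rise under BET inhibitors. With Nexturastat A, SERPINI1 rose from 9.15 CPM ± 0.582 (SD, n = 2) to 45.3 ± 13.3 (SD, n = 2), a log2 fold change of 2.31. HIST1H2BK rose by 0.60, ZCCHC24 fell by 0.59 on the log2 scale, and HIST2H2BE was not called (1.05, adjusted p = 0.135). The 5 genes, HEXIM1 included, thus moved in both directions with this drug. With the hairpins, HIST1H2BK rose by 1.57 and 1.33 and HIST2H2BE by 0.88 and 0.90, in the direction of HEXIM1, while SERPINI1 (0.17 and -0.39) and ZCCHC24 (-0.28 and -0.23) were not called.

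Over 19 libraries (all but knockdown replicate 3), with log2 CPM taken relative to the controls of each experiment, the 3 genes of 11317 most like HEXIM1 were CTNNA1 (Pearson's r = 0.982), WDR11 (0.981) and FBXO30 (0.974). They were chosen for this likeness, and the libraries share experiments and controls, so the values are a description. CTNNA1, which codes for alpha-catenin, differed by -0.41 with Nexturastat A and by 0.63 and 0.67 with the hairpins. Among the members, CCNT2 was most like HEXIM1 (r = 0.917), then AFF4 (0.783), BRD2 (0.768), LARP7 (0.715), CCNT1 (0.581), AFF1 (0.387) and BRD3 (0.309). CDK9, the kinase that HEXIM1 inhibits, was the only member with a negative value (-0.439).

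Some members share exonic sequence with other genes, and no source used here gives the strand setting of the counting. BRD3 overlaps 1281 exonic bases of the opposite-strand gene BRD3OS, HEXIM1 520 bases of an antisense transcript and CCNT2 148 bases of CCNT2-AS1. Reads from these partners cannot be told apart from those of the members. On GRCh38, HEXIM1 lies on chromosome 17 from 45148502 to 45152101, CCNT2 on chromosome 2 from 134918235 to 134959342, AFF4 on chromosome 5 from 132875379 to 132963634, BRD2 on chromosome 6 from 32968660 to 32981505, BRD3 on chromosome 9 from 134030305 to 134068535 and CDK9 on chromosome 9 from 127785679 to 127790787.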

How the data were processed

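RNA-seq was analysed in 22 libraries. The deposited values are raw read counts per gene symbol, 1 table per library, made by the authors. Per the submitters' processing notes, the tools were Trim Galore 0.6.7, STAR 2.7.9a, featureCounts 2.0.3 and DESeq2 1.30.1, with GRCh38 as the build. No source used here gives the annotation or the strand setting. Of 26485 symbols, 23899 were matched to GENCODE 29 for positions, length and GC content.

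Groups came from the labels. Each experiment was fitted apart on all its genes with edgeR 4.0.16 in R 4.3.3: filterByExpr (minimum count 10, total 15), TMM, the quasi-likelihood F test and Benjamini-Hochberg adjustment, with a threshold of 0.05. Knockdown replicates 1 and 2 were fitted together and replicate 3 was described as ratios of CPM (pseudocount 0.1 for correlations with GC content, CPM of at least 1). Contrasts of Nexturastat A with HPOB and Tubastatin A were interaction terms in a joint fit. All 9 members are named. Of each list, up to 2 called genes per direction are named, with the largest changes among genes whose groups do not overlap and whose mean log2 CPM reaches 2. The members and lists were chosen with earlier results of these data known.

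Alternatives were DESeq2 1.42.0, its size factors in edgeR, no filter, a mean CPM of at least 5, limma 3.58.1 voom with quality weights, removal of GC and length trends (splines with 3 degrees of freedom), a replicate block, both together, leaving out each library, 2 groups alone, all 9 knockdown libraries, and leaving out HPOB replicate 3 with Tubastatin A replicate 2. The trend removal was centred on the more expressed genes (mean log2 CPM 2 or more) after its first, uncentred form had been seen to shift all genes, and the uncentred form is given as an alternative added after seeing the data, as is plain CPM without TMM factors for replicate 3. The code was tested on simulated data. Depth was 31.2 to 85.9 M (mega) counts per library, and no pair of replicates was identical. Residuals of same-numbered libraries correlated at 0.105 (Nexturastat A), -0.05 to 0.161 (knockdown replicates 1 and 2) and -0.16 to 0.198 (compounds), so the numbers were not taken to pair libraries.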

Additional observations from a re-analysis of the deposited data

Results flagged for a closer look

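HEXIM1 was marked because its change with Nexturastat A differed from its change with HPOB by a test of that difference: the log2 difference of the 2 effects was -0.45 ± 0.14 (SE, edgeR adjusted p = 0.0394). HEXIM1 fell in both treated libraries against both Ctrl libraries with Nexturastat A (188 CPM ± 15.1 to 128 CPM ± 8.01, SD, n = 2 each). With HPOB it stood at 168 CPM ± 3.13 against 175 CPM ± 4.46 in DMSO (SD, n = 3 each). The difference was called in 10 of 21 alternatives, with adjusted p values from 0.00417 to 0.178. The dose of HPOB is not given in the sources used here.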

How the results depend on the processing

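Counts of members called moved by over 1.5 times as follows. With Nexturastat A the count was 5 of 9, 3 at a mean CPM of at least 5 (BRD2 and BRD3 lost), 9 with the uncentred GC and length trends, and 0 to 7 when a library was left out. The uncentred form moved the median of all genes from 0.03 to -0.26, and CDK9 reversed to -0.40 there. With shHDAC6-1 the count was 2, 4 with GC and length trends removed (with or without the replicate block), 0 with all 9 knockdown libraries (with or without the block) and 2 to 4 when a library was left out. With shHDAC6-2 it was 3, and under the same settings 5, 0 and 1 to 2. With all 9 libraries CCNT2 reversed to -0.14 (-1.13 with the block) with shHDAC6-1 and to -0.28 (-1.31) with shHDAC6-2, and AFF4 to -0.35 (-0.86) with shHDAC6-2. Replicate 3 alone ran the other way for both genes.

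For Nexturastat A against Tubastatin A the count was 0, 2 with DESeq2, 2 with voom, 3 with GC and length trends removed (3 with the block) and 0 to 2 when a library was left out. Against HPOB it was 1, 2 with DESeq2, 0 with no filter, 0 at a mean CPM of at least 5, 2 with the block and trends, and 0 to 1 when a library was left out. In knockdown replicate 3, 2 members were more than 2-fold higher with shHDAC6-1 and 1 with shHDAC6-2, against 0 and 0 on plain CPM without TMM factors, where 5 and 5 stayed lower. The log2 ratio of HEXIM1 with shHDAC6-1 went from 0.19 to -0.05 there. The cause of these moves was not tested.

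The replicate block alone called 4 members with Nexturastat A (BRD2 lost, adjusted p = 0.0515) and 3 with each hairpin (BRD3 added with shHDAC6-1, adjusted p = 0.0393). HEXIM1 was called in 15 of 17 alternatives with each hairpin, all but the fits of 9 libraries, and in 11 of 13 with Nexturastat A. Counts over all genes ran from 1781 to 8922 with Nexturastat A when a library was left out, and from 0 to 78 with HPOB. Where leaving out a library left 1 in a group, it was assumed to vary like the others.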
